A study of Mus musculus with 7 samples.

Results

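The genes described here are 43 mouse imprinted genes, chosen by name, in fully grown oocytes with and without the histone methyltransferase SETD1B. Each gene was looked up in a table of 33437 oocyte transcripts as the row that carries its name and lies on its own strand, and where a gene had several such rows the one with the highest mean was taken. Of the 43 genes, 27 had a row of this kind and 19 were high enough to be tested among 18179 transcripts.

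Imprinted genes are read from the maternal or from the paternal copy only, in embryos, placentae and many adult tissues. For most of them, which copy is read depends on DNA methylation that one parent's germ line places at a control region of the locus. This region is the germline differentially methylated region (gDMR). Slc38a4, among the genes here, is listed as noncanonical, with an imprint that does not rest on a methylated gDMR. Most gDMRs gain their methylation in the growing oocyte, where transcripts that begin further upstream run across the gDMR, and where methylation of lysine 4 of histone H3, the mark that SETD1B writes, is known to hinder the de novo methyltransferase DNMT3A. A growing oocyte still holds both chromosome copies of the female but sets the maternal imprint on them, so "paternally expressed" and "maternally expressed" name the behaviour of a gene in the offspring, not in these cells.

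RNA was measured in single germinal vesicle (GV) oocytes, arrested before the first meiotic division, from C57BL6 females (C57BL/6OlaHsd in the study's methods) aged 21 days. All females carried floxed Setd1b alleles. In the 4 Setd1b cKO libraries the female also carried Gdf9-Cre, which recombines in the oocyte from early folliculogenesis, and the 3 Setd1b WT libraries are labelled Gdf9-Cre negative. The methods of the study also count females with 1 intact Setd1b allele and Gdf9-Cre as WT. Each library is 1 oocyte, and the mother of each oocyte is not in the labels, so the p-values measure the spread between these oocytes.

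The libraries held 8582493 to 12972366 mapped reads, and levels are given in RPM, read numbers rescaled to the same total of mapped reads in every library. A single read was worth 0.0771 to 0.117 RPM. The 12 oocyte markers summed to 21205 to 21843 RPM in the cKO and to 25412 to 26461 RPM in the WT. Zp3, Gdf9 and Dppa3 were high in every library, and Ddx4 lay at 13.6 to 68.2 RPM. In limma 10 of the 12 had a log2 difference below 0 and 2 above 0. Mos was called lower, 1 of 12 (8.33%) against 5.71% of all transcripts. Its means were 191 RPM in the cKO and 486 RPM in the WT (log2 difference -1.34, SE 0.20, adjusted p = 0.00581 in limma). The genotypes did not overlap for Mos and Zp3, both lower in the cKO, 16.7% of the 12 against 20.3% of all transcripts. Of 22 granulosa cell markers 19 had a row, which together summed to 85.5 to 108 RPM in the cKO and 58.6 to 88.2 RPM in the WT, with Amh and Foxl2 at no more than 0.174 and 0.165 RPM in any library. Other markers of that list were present: Nr5a2 at 32.5 to 50.8 RPM in the cKO and 27.4 to 28.3 RPM in the WT, Inha at 7.03, 11.4, 13.2 and 0.583 RPM against 0.810, 4.32 and 0 RPM, Hsd3b1 at up to 7.14 against up to 0.842 RPM, and Cyp19a1 at 17.1 to 30.6 RPM over all libraries. Others went the other way, with Greb1 at 1.68, 1.98, 3.22 and 0.466 RPM in the cKO against 3.48, 3.62 and 2.71 RPM in the WT, and Cyp11a1 at means of 0.368 against 0.739 RPM. Of the 8 granulosa markers tested in limma, 6 had a log2 difference above 0 and 2 (Greb1 and Kitl) below 0, none was called, and 1 had an unadjusted p under 0.05. Of the mapped reads, 83.6% to 86.8% fell in the transcripts of the table in the cKO and 90.1% to 90.4% in the WT, so this share moved with genotype, and its part in the results was not tested beyond rescaling to it. The row that spans Setd1b, listed under the name Gm26745, lay at 8.31, 16.7, 12.8 and 2.68 RPM in the cKO and at 17.7, 16.3 and 8.61 RPM in the WT, so the genotypes overlapped (log2 difference of the genotypes -0.61, SE 0.49, adjusted p = 0.533 in limma). That row covers the whole gene and the deleted part is not given in the sources used here, so it does not check the genotype labels. On the second principal component of all transcripts, cKO replicate 4 and WT replicate 3 stood apart from the other libraries.

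Start regions from RefSeq (GRCm38.p6, 250 bases before to 50 after an annotated start) are shown for Usp29, Mest and Grb10, which are described below. Both rows of Usp29 begin further downstream, 20745 and 221600 bases after its GENCODE start, so neither holds the start region shown for it. Each CG, the site of DNA methylation, is in capitals, and the sequences read 5′ to 3′ on the strand of the gene. The first is the start of Usp29 at chr7:6730333-6730632 (plus strand), which shares 263 bases with the start region of the divergent gene Peg3 and holds 17 CGs.
Usp29: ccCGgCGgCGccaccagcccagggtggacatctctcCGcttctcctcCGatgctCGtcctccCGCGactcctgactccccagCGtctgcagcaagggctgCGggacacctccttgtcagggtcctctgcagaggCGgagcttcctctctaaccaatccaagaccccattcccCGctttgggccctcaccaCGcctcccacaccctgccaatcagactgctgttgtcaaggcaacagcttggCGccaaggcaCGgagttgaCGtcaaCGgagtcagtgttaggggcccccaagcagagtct
The second is the internal start of Mest at chr6:30737800-30738099 (plus strand), which the oocyte transcript of Mest crosses, with 17 CGs and 2 copies of TGCCGC, the core motif of the imprint-protecting protein ZFP57, counted on both strands.
Mest: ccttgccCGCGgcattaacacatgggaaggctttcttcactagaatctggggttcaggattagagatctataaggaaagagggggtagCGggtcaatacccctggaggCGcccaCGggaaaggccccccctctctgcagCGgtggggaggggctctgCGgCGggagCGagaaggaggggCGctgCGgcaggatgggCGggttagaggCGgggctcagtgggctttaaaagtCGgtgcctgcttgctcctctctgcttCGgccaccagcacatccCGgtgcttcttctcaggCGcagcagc
The third is the upstream start of Grb10 at chr11:12037371-12037670 (minus strand), at which the oocyte transcript begins, with 45 CGs, a density reached by 1.93% of all start regions.
Grb10: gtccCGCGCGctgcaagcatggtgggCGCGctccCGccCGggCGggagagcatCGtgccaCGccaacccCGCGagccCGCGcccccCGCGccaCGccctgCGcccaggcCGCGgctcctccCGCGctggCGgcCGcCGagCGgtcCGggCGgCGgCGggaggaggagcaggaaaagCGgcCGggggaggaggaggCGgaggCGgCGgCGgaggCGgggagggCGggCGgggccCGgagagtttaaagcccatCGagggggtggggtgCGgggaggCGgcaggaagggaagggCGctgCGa
The fourth is a downstream start of Grb10 at chr11:12027922-12028221 (minus strand), inside that transcript, with 9 CGs.
Grb10 downstream: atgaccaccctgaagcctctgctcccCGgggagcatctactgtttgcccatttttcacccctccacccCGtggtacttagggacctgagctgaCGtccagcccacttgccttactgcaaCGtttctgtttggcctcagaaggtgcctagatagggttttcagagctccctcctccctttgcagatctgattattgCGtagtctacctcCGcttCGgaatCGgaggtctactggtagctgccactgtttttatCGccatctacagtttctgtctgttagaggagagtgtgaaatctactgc
The median over all start regions of the genome was 7.0 CGs, so all 4 regions shown lie above it.

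Among the 19 tested imprinted genes, Usp29 and Impact were lower in Setd1b cKO oocytes and none was higher. A call required a Benjamini-Hochberg adjusted p under 0.05 over all 18179 transcripts in limma and a change over 2-fold. By this rule 1.95% of all transcripts were lower and 3.76% were higher, 5.71% in all, against 2 of 19 imprinted genes (10.5%). With no limit on the fold the same 2 of 19 passed, against 6.15% of all transcripts. At an unadjusted p under 0.05 the count was 4 of 19, against 21.7% of all transcripts, and voom on the recovered reads called 0 higher and 2 lower members, against 443 higher and 328 lower of all 18179 transcripts. The genotypes did not overlap for 4 of 19 genes (21.1%), namely Usp29 and Impact on the low side and Grb10 and Ppp1r9a on the high side, against 20.3% of all transcripts (7.14% on the low and 13.2% on the high side). Differences are cKO minus WT on the log2(RPM + 1) scale, where a change of a low gene appears smaller than it is. The median difference of the 19 genes was -0.02 and that of all transcripts was 0.12. Both calls were lost, leaving 0 lower genes, without WT replicate 1 and likewise without WT replicate 2, and 1 was left without cKO replicate 1 or without cKO replicate 3. The lower calls among all transcripts also fell, from 355 of 18179 to 134 of 17831 without WT replicate 1 and to 109 of 17897 without WT replicate 2. RPM is a share of the library, so the amount of RNA per oocyte was not measured.

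**Figure D1:**
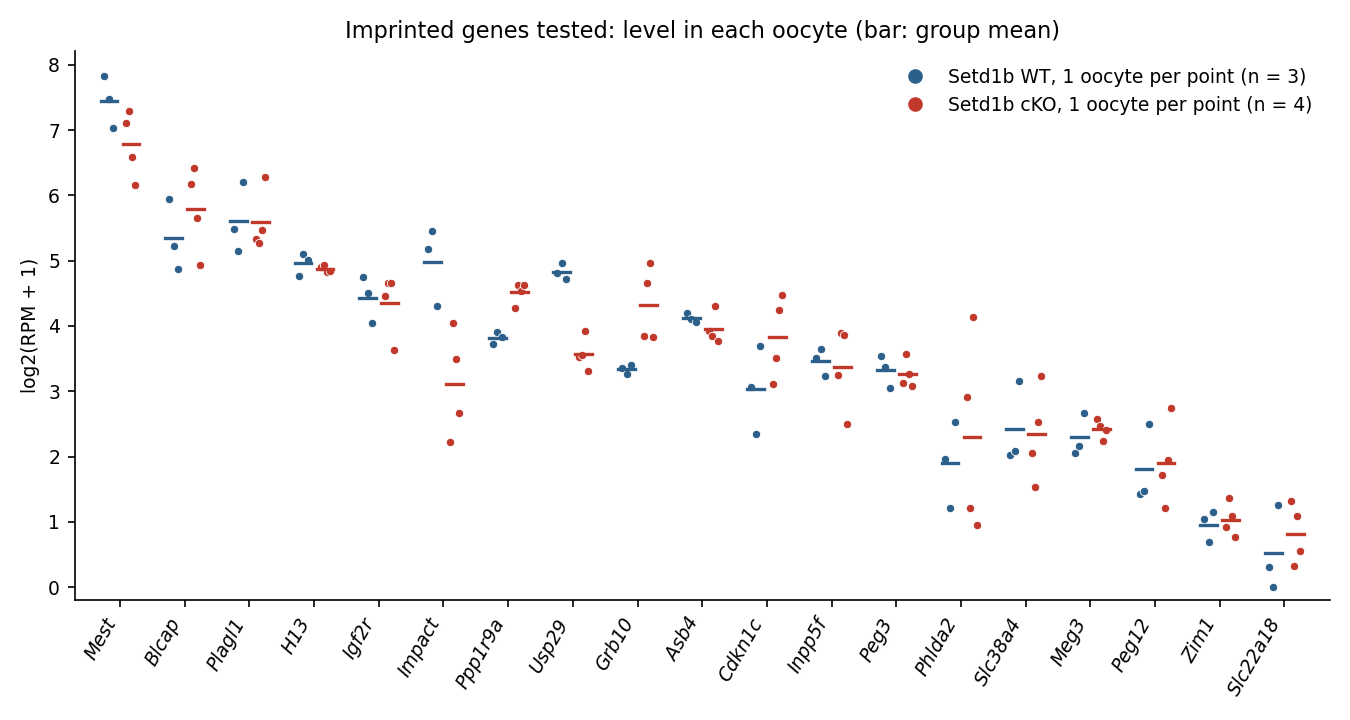
Level of each tested imprinted gene as log2(RPM + 1) on the vertical axis, with 1 point per oocyte (blue, 3 Setd1b WT; red, 4 Setd1b cKO) and a short bar at each group mean. Only Usp29, Impact, Grb10 and Ppp1r9a show no overlap between the red and the blue points.

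Grouped by the allele that the offspring read, the median log2 difference was -0.08 over the 8 paternally expressed genes, with 7 below 0 and 2 called lower. The 11 maternally expressed genes had a median of 0.29, with 3 below 0 and none called. Of all transcripts, 39.7% were below 0, 1.95% were called lower and 3.76% were called higher. Over the alternative settings, some of which cannot move a fold, the paternally expressed median ran from -0.32 to -0.02 and the maternally expressed median from 0.05 to 0.46. The difference between these groups was not tested, since genes are not replicates of a genotype. Centring the libraries on the median gene moved the median of all transcripts from 0.12 to -0.03, and then 8 of 8 paternally expressed and 5 of 11 maternally expressed genes lay below 0. Scaling to the reads within transcripts moved it to 0.19, and then 5 of 8 and 3 of 11 lay below 0. The paternally expressed count was also 5 of 8 without cKO replicate 1, without cKO replicate 2, without WT replicate 3, and without cKO replicate 4 and WT replicate 3 together.

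**Figure D2:**
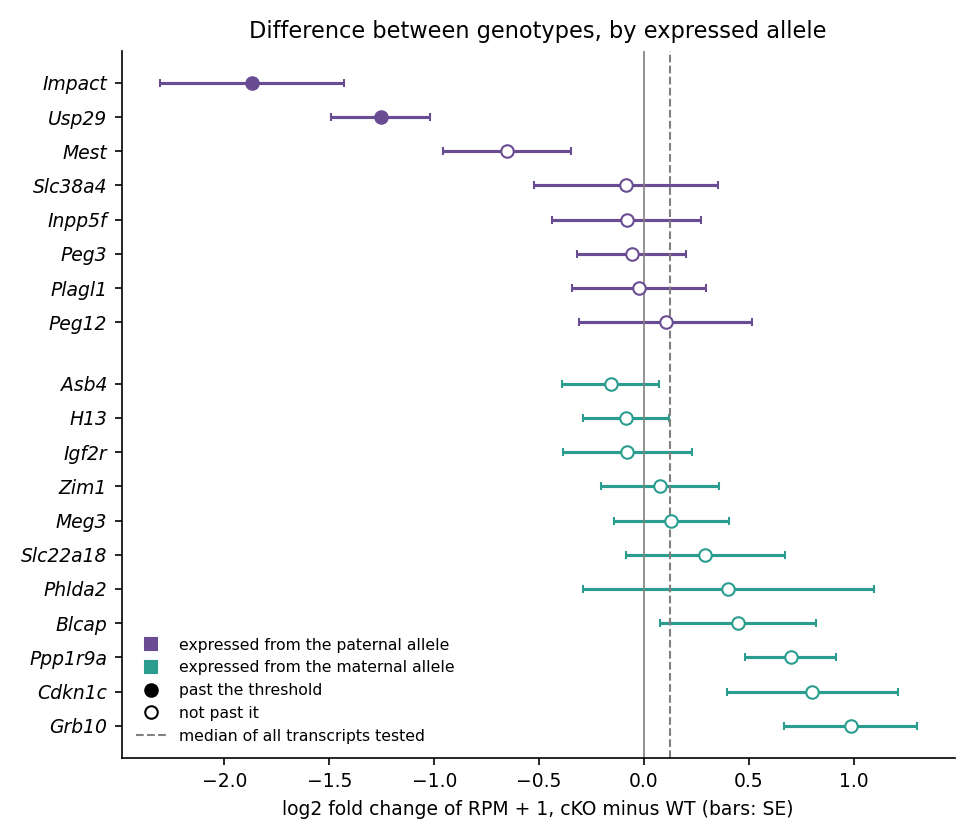
Log2 difference of RPM + 1, cKO minus WT, for the 19 tested genes on the horizontal axis, with bars of 1 SE, purple for paternally and green for maternally expressed genes. Filled points passed the threshold (Usp29 and Impact), open points did not, and the dashed line is the median of all transcripts at 0.12.

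Usp29, which encodes a ubiquitin-specific protease and is paternally expressed, lay at 10.5, 10.7, 14.1 and 8.97 RPM in the cKO and at 27.0, 30.4 and 25.3 RPM in the WT. Every cKO oocyte was thus below every WT oocyte, with 77 to 162 reads against 270 to 394. The means were 11.1 ± 2.17 (SD, n = 4) and 27.6 ± 2.59 RPM (SD, n = 3), which is a log2 difference of -1.26 (SE 0.24, adjusted p = 0.0132 in limma). The limma adjusted p was 0.0588 without WT replicate 1 and 0.0729 without WT replicate 2, with log2 differences of -1.27 and -1.19. This row lies at chr7:6952178-6967216 on the plus strand, 221600 bases from the GENCODE start of the gene, which lies close to the RefSeq start shown above, and holds all 2607 coding bases of the gene.

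A further row of Usp29 on its own strand moved in the opposite direction. It lies at chr7:6751323-6770137, begins 20745 bases after the GENCODE start and holds none of the coding bases. Its levels were 18.3, 35.6, 24.0 and 12.8 RPM in the cKO and 12.6, 8.63 and 10.0 RPM in the WT, so that all cKO oocytes lay above all WT oocytes, the lowest of the cKO by a narrow margin. The log2 difference was 0.98 (SE 0.33, adjusted p = 0.110 in limma), not past the threshold, and over 20 alternatives it ran from 0.74 to 1.21 and passed in 3, among them without cKO replicate 4 (1.21, limma adjusted p = 0.0279). The 5′ row was 1.75, 3.32, 1.70 and 1.43 times the coding row in the cKO oocytes and 0.464, 0.284 and 0.396 times in the WT oocytes. Hence the 5′ row was the higher of the pair in every cKO library and the lower in every WT library. With the reads of both rows added, Usp29 was not past the threshold (log2 difference -0.22, adjusted p = 0.712 in limma), so the call holds for the coding row and not for the locus as a whole. This pair was singled out after its values had been seen and the ratio was not tested.

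Peg3, a zinc finger gene that starts 164 bases from Usp29 on the other strand, lay at 7.72, 10.9, 8.62 and 7.46 RPM in the cKO and at 10.6, 9.33 and 7.30 RPM in the WT. The groups overlapped fully (log2 difference -0.06, SE 0.26, adjusted p = 0.928 in limma). Its row reaches 21374 bases upstream of the annotated Peg3 start and so runs across the start regions of both genes. Zim1, the neighbouring maternally expressed zinc finger gene, stayed near the filter at 0.699 to 1.56 RPM in the cKO and 0.617 to 1.22 RPM in the WT (log2 difference 0.07, SE 0.28). Of the rows examined at Peg3, Usp29 and Zim1, those of Usp29 separated the genotypes and the others did not.

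**Figure D3:**
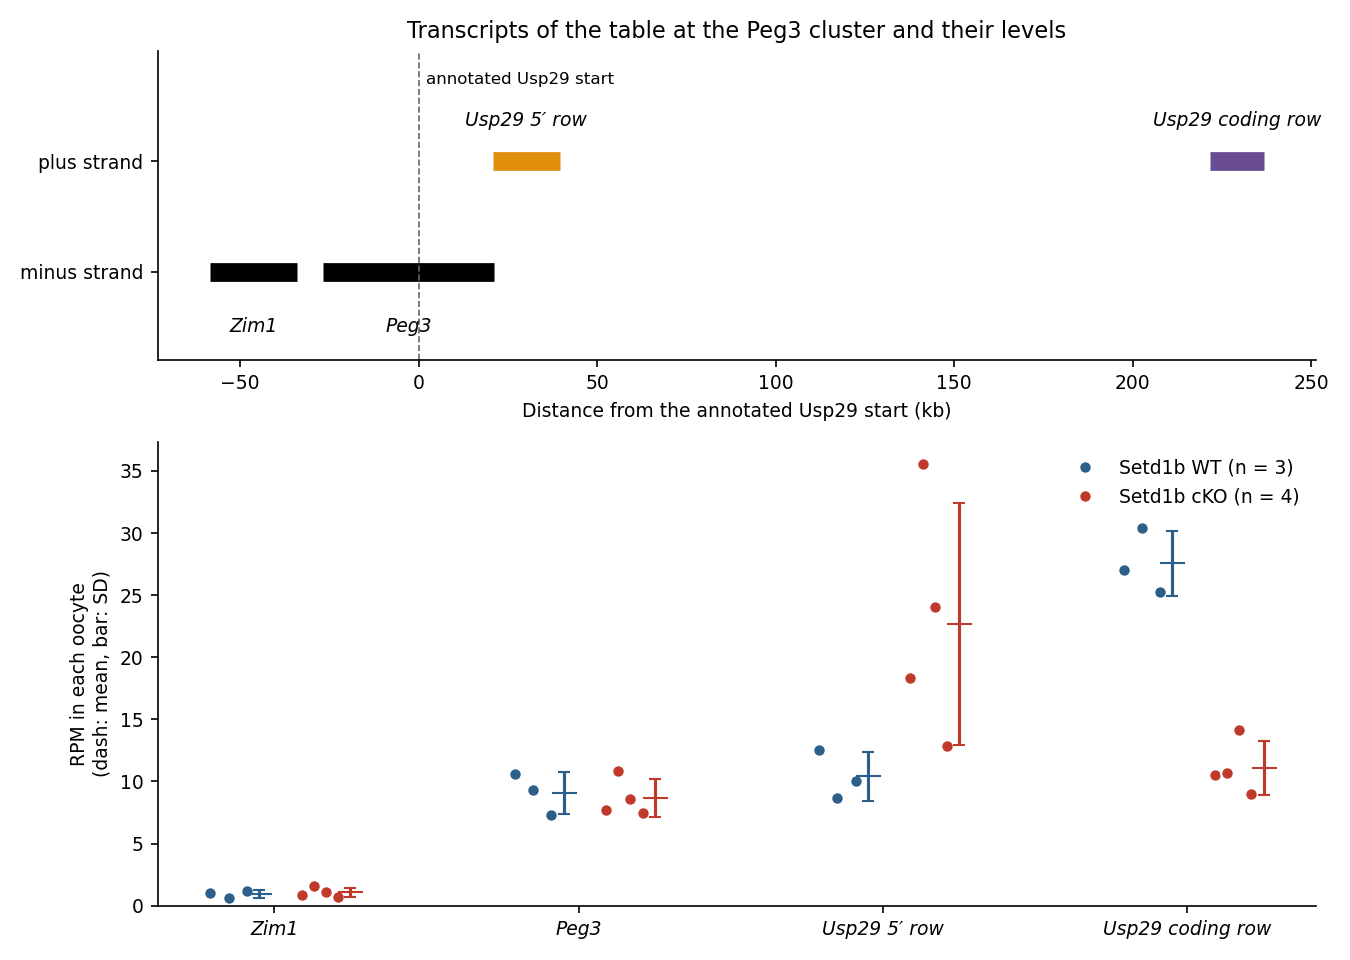
Top, the table's transcripts at the Peg3 cluster drawn to scale by distance in kb from the RefSeq start of Usp29 (dashed), plus strand above and minus strand below. Bottom, RPM of these rows in each oocyte (blue, 3 WT; red, 4 cKO; dash and bar, mean and SD): the coding row of Usp29 is lower in every cKO oocyte, the 5′ row is higher, and Peg3 and Zim1 overlap.

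Impact, on chromosome 18, is a paternally expressed regulator of the translation kinase GCN2 and had the largest log2 difference in size of the 19 genes. It lay at 3.66, 15.5, 10.3 and 5.36 RPM in the cKO and at 35.2, 42.6 and 18.7 RPM in the WT. The highest cKO oocyte was below the lowest WT oocyte, but both groups spread widely. The means were 8.69 ± 5.32 (SD, n = 4) and 32.2 ± 12.2 RPM (SD, n = 3), with a log2 difference of -1.87 (SE 0.44, adjusted p = 0.0334 in limma). The call was lost without cKO replicate 1 (limma adjusted p = 0.0758), cKO replicate 3 (0.0669), WT replicate 1 (0.122) or WT replicate 2 (0.158). Over these and the other libraries left out in turn, the log2 difference stayed between -2.21 and -1.57.

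Mest, a paternally expressed gene for a hydrolase-fold protein, lay at 137, 155, 95.6 and 70.5 RPM in the cKO and at 226, 176 and 129 RPM in the WT. The groups overlapped, since cKO replicates 1 and 2 were above WT replicate 3 (log2 difference -0.65, SE 0.30, adjusted p = 0.245 in limma). The row begins upstream of the start regions that RefSeq gives within it and passes the internal start shown above after 5813 bases. It did not pass the threshold in any of 21 alternatives, where its log2 difference ran from -0.86 to -0.44.

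The other paternally expressed genes overlapped between genotypes. The zinc finger factor gene Plagl1 lay between 37.7 and 76.7 RPM in the cKO and between 34.5 and 72.5 RPM in the WT, with 1 high oocyte in each group (cKO replicate 4 and WT replicate 3). Inpp5f, an inositol phosphatase gene, ran from 4.66 to 13.9 RPM in the cKO and from 8.42 to 11.5 RPM in the WT. Peg12, a FRAT family gene of the Snrpn cluster, ran from 1.32 to 5.71 RPM and from 1.70 to 4.68 RPM, with the same pair of oocytes highest. Slc38a4, an amino acid transporter gene, was represented by a row of 1.89 to 8.39 RPM in the cKO and 3.08 to 7.95 RPM in the WT. That row starts 29989 bases upstream of the annotated gene and holds none of its coding bases, and the row with all 1641 coding bases had 0 reads in the 7 libraries. The pair cKO replicate 4 and WT replicate 3 was highest for Plagl1, Peg12 and Slc38a4, 3 of 19 genes, against 11.8% of all transcripts, and lowest for Blcap, Igf2r, Inpp5f and Peg3, 4 of 19, against 16.5%.

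Among the maternally expressed genes, Grb10, an adaptor that restrains insulin receptor signalling, had the largest log2 difference. It lay at 13.5, 24.3, 30.1 and 13.2 RPM in the cKO and at 9.23, 8.63 and 9.54 RPM in the WT, with a narrow WT group and a cKO group that split into a lower and a higher pair. All cKO oocytes were above all WT oocytes, with means of 20.3 ± 8.37 (SD, n = 4) and 9.14 ± 0.462 RPM (SD, n = 3). The log2 difference was 0.98 (SE 0.32, adjusted p = 0.0964 in limma) and did not pass. Without cKO replicate 4 it passed, at a log2 difference of 1.15 (limma adjusted p = 0.0405), as it did without cKO replicate 4 and WT replicate 3 together, at 1.18 (adjusted p = 0.0300). The row begins close to the upstream start shown above and crosses the downstream start after 9430 bases.

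Ppp1r9a, the gene of the actin-binding scaffold neurabin in the Peg10 cluster, lay at 18.4, 23.7, 22.2 and 23.7 RPM in the cKO and at 12.2, 14.0 and 13.2 RPM in the WT. Both groups were tight and did not overlap (22.0 ± 2.49, SD, n = 4, and 13.1 ± 0.864 RPM, SD, n = 3). The difference of 0.70 (log2, SE 0.22, adjusted p = 0.0893 in limma) was under 2-fold and passed in none of 21 alternatives. Asb4, an ankyrin repeat gene of the same cluster, lay at 14.2, 13.4, 18.7 and 12.6 RPM in the cKO and at 17.3, 16.2 and 15.6 RPM in the WT, with cKO replicate 3 above and the others below all WT oocytes (log2 difference -0.16, SE 0.23, adjusted p = 0.761 in limma). Its row starts 48831 bases upstream of the annotated Asb4 start.

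In the Kcnq1ot1 cluster, 3 maternally expressed genes were tested and none passed. Cdkn1c, the cell cycle inhibitor p57, lay at 7.62, 10.4, 17.9 and 21.3 RPM in the cKO and at 7.37, 4.09 and 11.9 RPM in the WT, with cKO replicates 3 and 4 above all WT oocytes (log2 difference 0.80, SE 0.41, adjusted p = 0.287 in limma). Phlda2, a growth-restraining gene of the placenta, lay at 6.53, 1.32, 16.6 and 0.932 RPM in the cKO and at 2.92, 1.31 and 4.77 RPM in the WT. The cKO values of Phlda2 enclosed those of the WT, and the log2 difference of 0.40 (SE 0.69) became -0.21 without cKO replicate 3. Slc22a18, a transporter gene, passed the filter with 1.48, 0.247, 1.13 and 0.466 RPM in the cKO and 0.243, 0 and 1.40 RPM in the WT, with 15 reads in the highest library of each group, so the groups overlapped (log2 difference 0.29, SE 0.38).

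The remaining maternally expressed genes also overlapped. Igf2r, the receptor that clears IGF2, ran from 11.4 to 24.2 RPM in the cKO and from 15.4 to 25.8 RPM in the WT (log2 difference -0.08, SE 0.31). H13, the gene of a signal peptide peptidase, was steady in the cKO, at 28.8, 29.5, 27.3 and 27.7 RPM, against 26.1, 33.4 and 31.2 RPM in the WT (log2 difference -0.08, SE 0.20). Blcap, which surrounds the imprinted gene Nnat, lay at 71.5, 84.3, 49.5 and 29.6 RPM in the cKO and at 60.7, 36.5 and 28.2 RPM in the WT (log2 difference 0.45, SE 0.37, adjusted p = 0.544 in limma). Meg3, a long noncoding RNA, lay at 4.95, 4.53, 3.74 and 4.31 RPM in the cKO and at 3.16, 3.47 and 5.33 RPM in the WT (log2 difference 0.13, SE 0.27). For Blcap, WT replicate 1 was above the 2 lowest cKO oocytes, and for Meg3, WT replicate 3 was the highest of all 7.

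A further 8 genes had a row but were too low to test. Rtl1, a retrotransposon-derived gene of the Dlk1-Meg3 cluster, and Kcnk9, a potassium channel gene, had 0 reads in all libraries. A count of 0 allows up to 3 reads, which is 0.231 to 0.350 RPM in these libraries and covers counting error only. H19, a long noncoding RNA, had reads in 1 library, cKO replicate 2, at 0.247 RPM, and its neighbour Igf2, a fetal growth factor gene, reached 0.348 RPM. Dlk1, a Notch ligand-like gene, did not exceed 0.0990 RPM. Nespas, a noncoding RNA of the Gnas cluster, reached 0.906 RPM, Sgce, the epsilon-sarcoglycan gene, 1.21 RPM, and Ube3a, a ubiquitin ligase gene, 0.697 RPM. The Ube3a row covers only the 3′ end of the gene and holds no coding base, while a row of that locus listed under 9330162G02Rik lay at 23.2 to 61.1 RPM in the cKO and 36.1 to 66.5 RPM in the WT (log2 difference -0.35, SE 0.36).

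The other 16 genes had no row under their own name and strand. The names Airn and Gnas were on rows of the opposite strand only, and Snrpn, Kcnq1ot1, Nap1l5, Peg10, Calcr, Ndn, Magel2, Mkrn3, Zrsr1, Commd1, Mcts2, Nnat, Trappc9 and Peg13 were on none. A row takes its name from 1 gene it overlaps, so a missing name is not a missing transcript. Matched by span to GENCODE genes, with at least 0.5 of the joint span shared, 10 of the 16 gained a row and 5 of these were tested, with none called against 5.71% of all transcripts, a share at which 0 of 5 says little. Snrpn, the splicing protein gene whose upstream transcripts are active in oocytes, lay at 32.1, 24.5, 26.0 and 22.8 RPM in the cKO and at 39.5, 32.3 and 31.7 RPM in the WT, with cKO replicate 1 inside the WT range (log2 difference -0.38, SE 0.22, adjusted p = 0.353 in limma). Gnas, the stimulatory G protein gene, lay at 72.7 to 94.7 RPM in the cKO and 83.5 to 95.2 RPM in the WT (log2 difference -0.11, SE 0.20). Airn, the noncoding RNA antisense to Igf2r, lay at 9.64 to 16.8 RPM and 10.9 to 16.2 RPM, Commd1, a gene of a COMM domain protein, at 228 to 339 RPM and 218 to 328 RPM, and Trappc9, a trafficking complex gene, at 10.0 to 17.6 RPM and 11.0 to 16.3 RPM, and all 3 overlapped. At Gnas, a row on the opposite strand held 96.0% to 97.4% of the reads of the plus-strand row in every library, so reads of the strands cannot be told apart there. The same limit applies to Airn and Igf2r, which overlap by 28616 bases, and may apply to other rows that overlap on opposite strands. Among these are H13 (1960 bases), Mest (902 bases), and the Peg3 row with the 5′ row of Usp29. The row of Commd1 spans further than the gene.

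Many imprinted gene starts lay inside longer oocyte transcripts. Of 33 members with a RefSeq start region outside chromosome 18, 18 (54.5%) had a start at least 1000 bases inside a transcript of at least 1 RPM, against 19.7% of 27025 genes. This description was not tested and does not match genes by level, length or number of starts. The 33 members had 52 start regions and the 27025 genes had 32851. A gene counted if any of its starts lay inside a transcript of either strand, and only RefSeq starts were used. Examples are Plagl1, whose RefSeq start lay 30320 bases inside its own transcript while GENCODE places the start of the gene at about the 5′ end of that transcript, Kcnq1ot1, 190160 bases inside the row of Kcnq1 on the other strand, Nap1l5, 93928 bases inside Herc3, Mcts2, 17761 bases inside H13, Nnat, 6527 bases inside Blcap, and Zrsr1, 10770 bases inside the row that spans Commd1. The host rows of Kcnq1 and Herc3, which are not members, did not pass the threshold: the cKO and WT means were 8.62 ± 0.869 (SD, n = 4) and 12.5 ± 5.81 RPM (SD, n = 3) for Kcnq1, and 8.72 ± 2.71 and 7.79 ± 3.60 RPM for Herc3. Of the 16 host transcripts, 0 were called higher and 0 lower in limma, against 5.71% of all transcripts, a share at which few or none of 16 would be called. The core motif TGCCGC, searched on both strands and as the only motif, was in 13 of 52 member start regions (25.0%) and in 11.6% of 32851 start regions in all. The median number of CGs was 13.5 against 7.0, the motif itself contains a CG, and the regions were not matched for CG number. Both of a nearly identical pair of Mest regions (start sites 30738050 and 30738053) are among the 13.

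**Figure D4:**
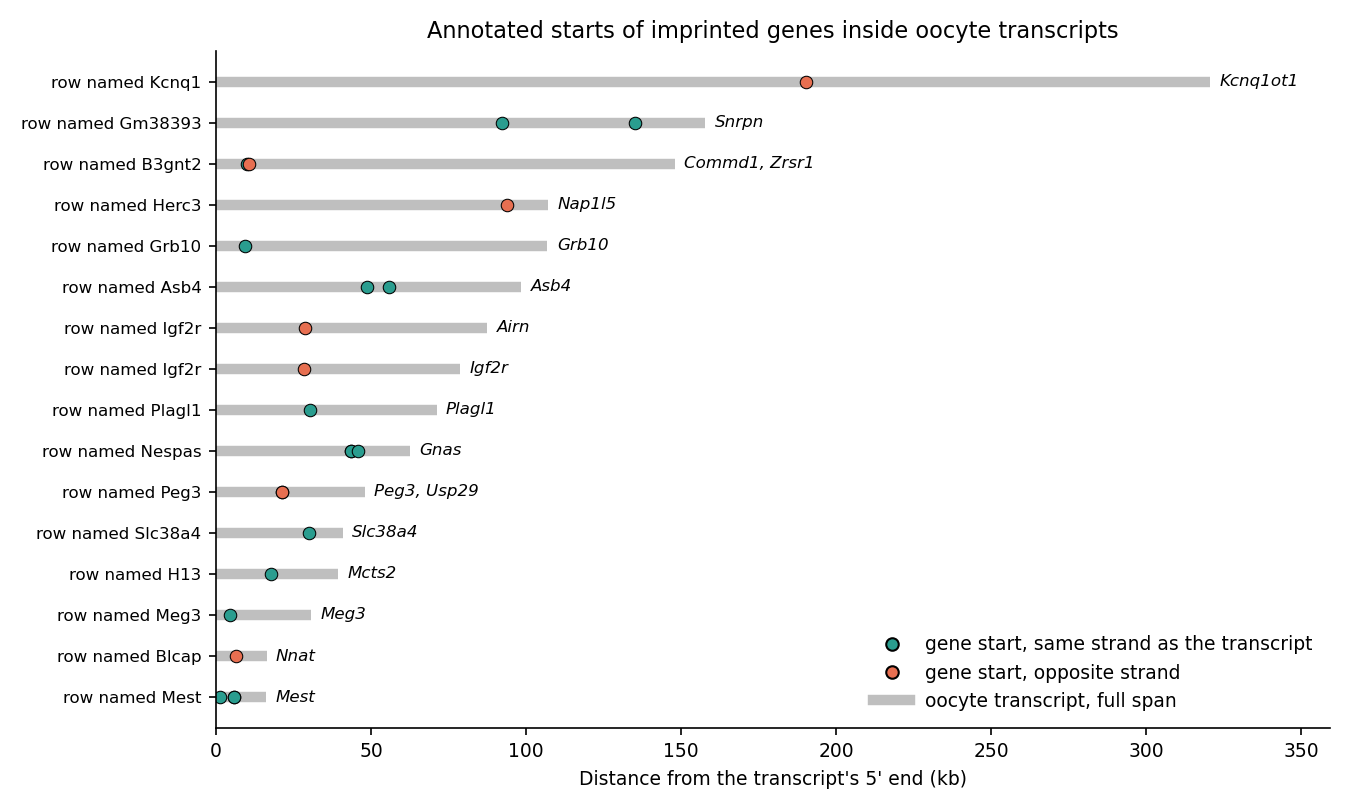
Grey bars are the 16 oocyte transcripts that hold an annotated start of an imprinted gene, drawn from the 5′ end in kb, and points are those starts (green, same strand as the transcript; orange, opposite strand), with the gene names at the right. The starts lie from 1269 bases (Mest) to 190160 bases (Kcnq1ot1) inside.

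Of 26 genes chosen for links to imprints, not all of which set or keep them, 16 had a row and 15 were tested. Without a row of their own name and strand were Dnmt3b, Dnmt3l, Kdm1a, Kdm1b, Setdb1, Hira, Ctcf, Arid4a, Arid4b and Smchd1, so these were not measured here. Dnmt1 was lower, 1 of 15 (6.67%) against 5.71% of all transcripts called in either direction. Dnmt1, the maintenance DNA methyltransferase, lay at 300.2, 293, 263 and 297 RPM in the cKO and at 673, 688 and 742 RPM in the WT, with no overlap (log2 difference -1.28, SE 0.19, adjusted p = 0.00545 in limma). It was lower past the threshold without each library in turn. Tet3, which oxidises methylcytosine after fertilisation, lay at 104, 120, 108 and 132 RPM in the cKO and at 165, 191 and 208 RPM in the WT, also without overlap, but did not pass (log2 difference -0.69, SE 0.20, adjusted p = 0.0680 in limma). Atrx, a chromatin remodeller, lay at 430.2, 446, 323 and 218 RPM in the cKO and at 243, 317 and 152 RPM in the WT (log2 difference 0.58, SE 0.32, adjusted p = 0.325 in limma). Ctcfl, a paralogue of the insulator protein gene Ctcf, lay at 34.7, 20.01, 36.1 and 69.4 RPM in the cKO and at 15.5, 16.3 and 38.2 RPM in the WT (log2 difference 0.74, SE 0.42, adjusted p = 0.343 in limma). Dnmt3a, the de novo methyltransferase of the oocyte, overlapped at 52.4 to 84.1 RPM against 80.8 to 110 RPM, and Zfp57 was spread over 490 to 2383 RPM in the cKO and 950 to 2467 RPM in the WT. The median log2 difference of the 15 genes was -0.14.

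Of 42 further imprinted genes, 24 had a row, 13 were tested, and Dcn was higher, 1 of 13 (7.69%) against 5.71% of all transcripts called in either direction. Dcn, the proteoglycan decorin, lay at 5.15, 7.25, 6.62 and 6.87 RPM in the cKO and at 0.891, 1.62 and 3.09 RPM in the WT (log2 difference 1.45, SE 0.32, adjusted p = 0.0248 in limma). The groups did not overlap, and the call was lost without cKO replicate 2 (limma adjusted p = 0.0579), cKO replicate 3 (0.0697), WT replicate 1 (0.112) or WT replicate 2 (0.102). Over these and the other libraries left out in turn, the log2 difference of Dcn ran from 1.18 to 1.74. Decorin is made by stromal and follicular cells, and of the 8 stromal and blood markers 7 had a row, which summed to 8.01 to 19.4 RPM in the cKO and 13.2 to 21.1 RPM in the WT, almost all of it Pecam1 at 7.31 to 19.5 RPM. The stromal marker Pdgfra lay at 1.09, 0.329, 0.522 and 0 RPM in the cKO and at 0.0810, 0 and 0 RPM in the WT, Col1a1 at 0.174 to 0.486 RPM over all libraries, Col1a2 and Col3a1 at 0 in the cKO and at up to 0.324 and 0.648 RPM in the WT, and the globin genes at 0 throughout. The part of these markers and of the granulosa markers, of which some were higher and some lower in the cKO, was not tested. Gpr1, a chemerin receptor gene, lay at 191, 183, 153 and 105 RPM in the cKO and at 336, 339 and 227 RPM in the WT (log2 difference -0.94, SE 0.26, adjusted p = 0.0631 in limma). Dio3, the thyroid hormone-inactivating deiodinase of the Dlk1-Meg3 cluster, lay at 13.6, 14.9, 19.4 and 9.55 RPM in the cKO and at 6.56, 8.63 and 6.27 RPM in the WT (log2 difference 0.89, SE 0.28, adjusted p = 0.0947 in limma). Jade1, a PHD finger gene, lay at 1.09, 0.247, 1.65 and 1.40 RPM in the cKO and at 0.162, 0 and 0.0936 RPM in the WT, and since it passed the filter only through the cKO libraries, where it is high, no test of it is given. In all, 5 of 13 genes (38.5%) did not overlap between genotypes, these 4 and Slc22a3, against 20.3% of all transcripts, and Jade1 is among the 13 only through its cKO libraries. The 5 include genes on both sides, and the median log2 difference of the 13 genes was 0.08.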

How the data were processed

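The study amplified cDNA of single oocytes with the SMARTer Ultra Low kit, prepared NEBNext libraries and sequenced 75-base single reads. Reads were trimmed (trim galore), mapped to GRCm38 with Hisat, stripped of hits with low mapping quality and quantified in SeqMonk over oocyte transcripts defined earlier, with isoforms merged. The use of strand in counting is not stated. Per the submitters' processing notes, bcl2fastq 1.8.4 and featureCounts 1.4.4 are also listed, with no role given.

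The authors deposited log2 RPM values, each library scaled to its own mapped reads, and a fixed value below 1 read standing in for 0. Dividing by the value of 1 read returned whole reads for 100% of values below 1000 reads (tolerance 0.02 reads), which gave the depths and true zeros.

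Values were transformed to log2(RPM + 1), with a pseudocount of 1 RPM, and transcripts that reached 1 RPM in 3 or more libraries were fitted with lmFit and eBayes (trend) in limma 3.58.1 (R 4.3.3), 4 cKO against 3 WT, without covariates. The threshold was a Benjamini-Hochberg adjusted p under 0.05 and over 2-fold. Since the deposited unit is log2 RPM, the main test was on the log scale, and voom on the recovered reads was an alternative. The fit was tested on simulated data.

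The members, the lists of imprint factors, further imprinted genes and cell markers, and the tests were chosen with earlier results of these data known. Named genes were those past the threshold, the 12 tested members of lowest p, tested members of the same loci and the 4 genes of lowest p of the imprint factor and further imprinted lists. Other values were singled out after they had been seen. The replicate numbers are those of the labels. Same-numbered libraries of the genotypes did not deviate together (r = 0.192, 0.294 and -0.129 across transcripts), so they were not paired. Figures and tables were made in Python 3.11.15 with pandas 2.3.3 and matplotlib 3.10.9. Sequence on chromosome 18 was not used here.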

Additional observations from a re-analysis of the deposited data

Results flagged for a closer look

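The 4 cKO values were examined for 27 genes, the 19 tested members and the 8 genes named from the other lists, but not for rows too low to test. Among these, 1 set held an oocyte that stood far from the others, and chance alone gives about 1 in 20, or 1.35 here. For Plagl1, cKO replicate 4 lay at 76.7 RPM and the nearest cKO oocyte at 43.2 RPM, a gap of 0.86 of the group's whole range. WT replicate 3, at 72.5 RPM, was the highest of the 3 WT oocytes.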

How the results depend on the processing

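The main counts were 0 higher and 2 lower members, 0 higher and 1 lower imprint factor, and 1 higher and 0 lower further imprinted gene. Leaving out each library in turn gave 0 to 1 higher and 0 to 2 lower members, and 0 to 2 higher and 0 to 1 lower further imprinted genes. Without a filter the counts were 1 lower member and 0 higher further imprinted genes, with more transcripts tested. Adding up a gene's own-strand rows left 1 lower member. Without cKO replicate 4 and WT replicate 3 together, an alternative chosen after seeing the data, 1 member was higher. For further imprinted genes, a pseudocount of 5 RPM or quantile normalisation gave 0 higher, and centring on the median gene gave 1 lower. With the replicate number as a block 1 member (Grb10, log2 difference 1.15, limma adjusted p = 0.0328) and 2 further imprinted genes (Dcn and Dio3) were higher, the 5′ row of Usp29 passed (1.21, limma adjusted p = 0.0339), no other call among the named genes changed, and over all transcripts 924 were higher and 479 lower against 683 and 355. By construction the block leaves cKO replicate 4 without a partner, so its log2 differences equal those without that library, where the counts were 850 and 437. The cause of the other changes was not tested.

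Small differences of uncalled genes turned sign. Peg3 became 0.012 on scaling to reads within transcripts and 0.00048 with the block, and ran from -0.19 to 0.049 without single libraries. Zim1 became -0.082 on centring and -0.16 on quantile normalisation, and ran from -0.059 to 0.17. Meg3 became -0.025 and -0.090 in the same settings, and Phlda2 ran from -0.21 to 0.85. Dnmt1 remained past the threshold in each of 21 alternatives. DESeq2 and edgeR were not run, and voom was the test on the recovered reads. At this depth a member under 3 reads is not measurable.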
